A study of Homo sapiens with 21 samples.

Results

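The genes described here are 38 genes of the hypoxia response and of glycolysis, chosen by their symbols as known targets or parts of the hypoxia-inducible factor (HIF) pathway and as enzymes and transporters of glucose use, out of 60651 genes in the count table. Each of the 38 symbols was found 1 time and all 38 passed the filter on low counts, with no member dropped. They were measured by RNA-seq in 21 xenografts grown subcutaneously in female athymic nu/nu mice of 6-8 weeks from A549-Luc2 cells, a luciferase-carrying derivative of a single human lung adenocarcinoma line. The groups were 7 control tumors, 7 Oxy186-treated and 7 Oxy210-treated tumors. Oxy186 and Oxy210 are oxysterol derivatives, given daily by oral gavage at 50 mg/kg in a vehicle of DMSO, ethanol, PEG400 and corn oil, and the control mice received that vehicle alone. Athymic mice lack T cells, and stroma, vessels and blood in such tumors come from the mouse, so that the human read counts describe the cancer cells. In bulk tumors, fewer hypoxic cells and less RNA per cell cannot be told apart.

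HIF is a pair of an oxygen-sensitive alpha subunit (HIF1A or EPAS1) and a stable beta subunit. With oxygen present, prolyl hydroxylases such as EGLN1 and EGLN3 mark the alpha subunit for destruction, so control acts mainly on the protein and not on the mRNA of HIF1A. In poorly perfused regions of solid tumors the alpha subunit persists and switches on genes for glucose uptake, glycolysis, lactate export, acid handling, vessel growth and collagen processing, and CA9 is widely used as a tissue marker of hypoxic tumor cells.

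HIF binds DNA at a short core, ACGTG or GCGTG, read on either strand. The 250 bases before the RefSeq start of 6 members are shown on GRCh38.p14, in the direction of the gene, with each core in capitals: CA9, ADM, ALDOC and ENO2, whose mRNA rose with CA9 between tumors, and ENO1 and PGAM1, for which no such relation was called. CA9 is at chr9:35673678-35673927 on the + strand, ADM at chr11:10304823-10305072 on the + strand, ALDOC at chr17:28576896-28577145 on the - strand, ENO2 at chr12:6914330-6914579 on the + strand, ENO1 at chr1:8878687-8878936 on the - strand and PGAM1 at chr10:97427568-97427817 on the + strand. All 6 windows end at the base before this RefSeq start, which in PGAM1, ENO2, ENO1 and ALDOC is not the gene start in the GENCODE annotation used for exon positions.
CA9: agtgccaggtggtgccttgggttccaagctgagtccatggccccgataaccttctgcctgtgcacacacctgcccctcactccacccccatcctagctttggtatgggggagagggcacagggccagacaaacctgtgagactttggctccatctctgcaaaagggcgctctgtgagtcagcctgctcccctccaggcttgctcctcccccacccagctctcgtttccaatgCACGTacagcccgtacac
ADM: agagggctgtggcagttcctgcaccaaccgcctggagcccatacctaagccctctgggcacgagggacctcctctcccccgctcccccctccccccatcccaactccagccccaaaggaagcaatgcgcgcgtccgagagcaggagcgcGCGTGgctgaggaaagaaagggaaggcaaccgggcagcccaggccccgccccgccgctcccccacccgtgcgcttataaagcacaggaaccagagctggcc
ALDOC: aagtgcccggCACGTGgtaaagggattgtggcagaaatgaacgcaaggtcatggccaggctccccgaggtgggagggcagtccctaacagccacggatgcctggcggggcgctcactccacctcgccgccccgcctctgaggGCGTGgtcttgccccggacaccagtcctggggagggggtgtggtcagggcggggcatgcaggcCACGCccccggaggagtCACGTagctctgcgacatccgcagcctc
ENO2: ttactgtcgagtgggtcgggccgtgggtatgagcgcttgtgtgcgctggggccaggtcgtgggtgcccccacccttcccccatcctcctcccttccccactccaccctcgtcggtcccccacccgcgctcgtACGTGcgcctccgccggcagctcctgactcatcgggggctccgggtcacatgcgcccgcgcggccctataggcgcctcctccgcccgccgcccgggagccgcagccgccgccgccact
ENO1: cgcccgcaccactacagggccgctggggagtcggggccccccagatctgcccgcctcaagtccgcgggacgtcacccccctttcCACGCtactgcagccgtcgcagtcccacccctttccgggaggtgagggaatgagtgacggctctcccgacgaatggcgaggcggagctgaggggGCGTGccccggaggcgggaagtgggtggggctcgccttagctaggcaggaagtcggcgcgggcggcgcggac
PGAM1: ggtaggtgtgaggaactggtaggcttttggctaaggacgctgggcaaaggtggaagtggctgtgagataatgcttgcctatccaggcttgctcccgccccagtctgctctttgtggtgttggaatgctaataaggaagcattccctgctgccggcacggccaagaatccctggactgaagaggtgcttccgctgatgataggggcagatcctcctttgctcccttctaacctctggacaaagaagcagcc
CA9 held 1 core in this window, 18 bases before its start, and ADM and ENO2 held 1 each. ALDOC held 5, counting its palindrome CACGTG on both strands, while ENO1 held 2 and PGAM1 held 0. Windows of 34 of the 38 members were in the table, and 30 of these (88.2%) held at least 1 core, as did 47.4% of 27305 genes. Among the 11 matched members that rose with CA9, 9 held a core, and among the other 22 matched members 20 did. NDRG1, SLC2A3, BNIP3L and VEGFA were not matched. The letters describe a sequence and do not show binding.

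Each tumor had between 13787493 and 17865119 counts on human genes. Levels are given as log2 CPM, the log2 of a gene's counts scaled to a common library size (CPM) with TMM factors and a prior count of 2. The 8 listed A549 markers summed to between 15063 and 27743 CPM in every tumor, while the 6 endothelial markers summed to between 1.68 and 6.60 CPM and the 3 hemoglobin genes to at most 0.657 CPM. Of the 6 fibroblast markers, LUM and COL1A1 carried nearly all of the summed 76.9 to 260 CPM, and COL1A2 had at most 1 count in any tumor. Oxy186-treated samples r1-r4, which the study carried forward as a set, had counts that fell with the GC content of genes. Their slope lay between -0.51 and -0.18 log2 units per 10 percentage points of GC, against 0.08 to 0.49 in r5-r7, -0.15 to 0.40 in the control group and -0.33 to 0.26 in the Oxy210 group, so that they lay below every control and every other Oxy186-treated sample but overlapped with the Oxy210 group. The part of this trend in the values below is shown where GC was entered in the fit (GC offsets) or r1-r4 were left out.

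These genes were proposed as a group because hypoxia genes were already known to be lower in both treated groups than in the control group, so the contrasts with control are a description of that choice. In Oxy186-treated samples, 33 of 38 members lay below the controls, with a median log2 fold change of -0.26 against 0.02 over all genes tested, of which 47.4% were below 0. In Oxy210-treated samples, 31 of 38 were below 0, with a median of -0.28 against 0.01 over all genes, of which 49.3% were below 0. The 2 contrasts share their 7 control tumors, so their values are given side by side and not as separate evidence. A call required more than a 2-fold change together with a Benjamini-Hochberg adjusted p of 0.05 or less in edgeR's quasi-likelihood test, and no gene was called in either contrast (0% of 16291 and 0% of 16396 genes). At an unadjusted p under 0.05, 632 genes passed for Oxy186 and 2302 for Oxy210, and no member passed the adjusted threshold in DESeq2 or limma voom either. No member had groups without overlap in either contrast, where the background was 0% lower and 0.0123% higher genes for Oxy186, and 0.0976% lower and 0.0671% higher for Oxy210.

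**Figure D1:**
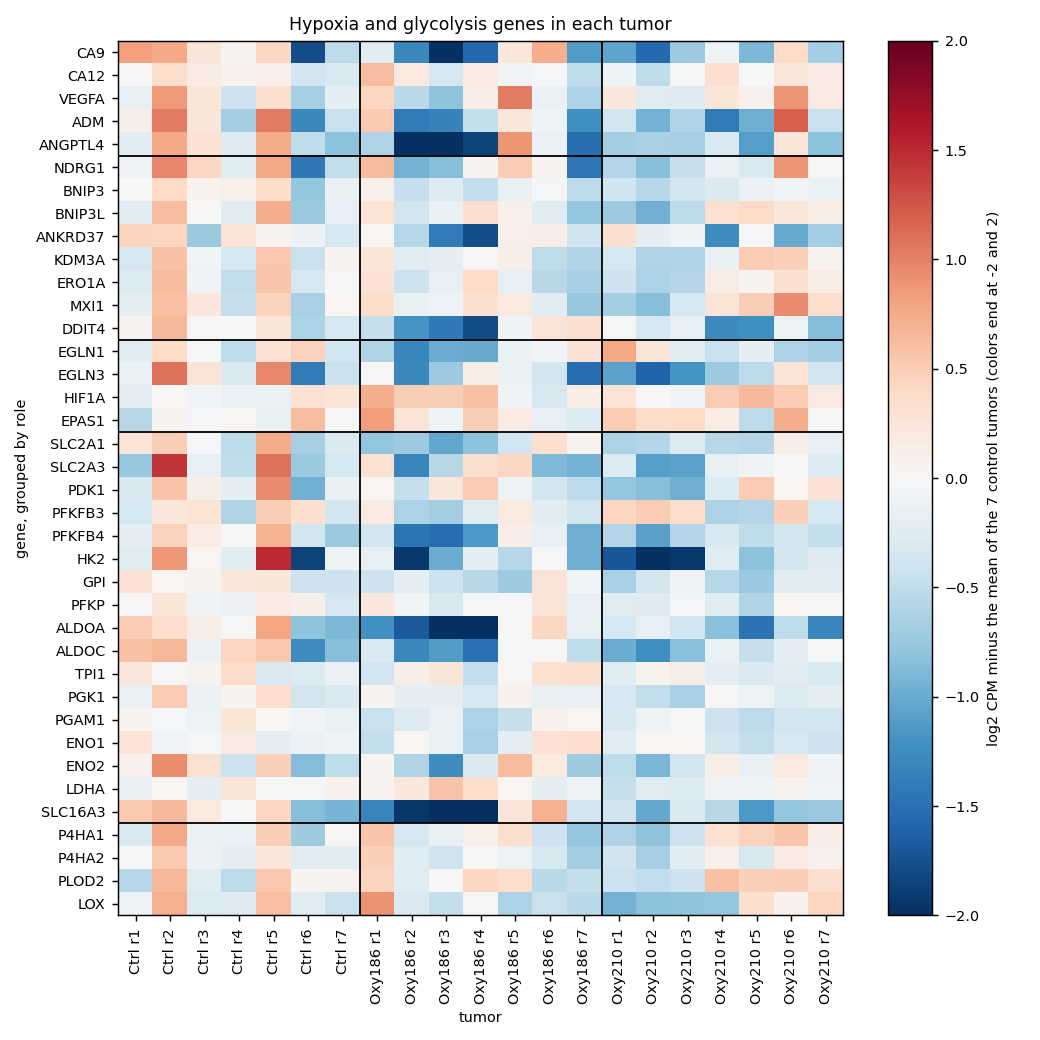
Log2 CPM of each of the 38 genes (rows, grouped by role) in each of the 21 tumors (columns), after subtracting the mean of the 7 control tumors (red above, blue below). Control r2 and r5 are red across most rows, and Oxy186 r2-r4 are dark blue in ANGPTL4, ALDOA and SLC16A3.

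Tumors within each group differed widely. The median of the 38 genes against the control mean was 0.58 in control r2 and 0.47 in control r5, with 3 and 5 of the 38 genes below the control mean. In control r6 the same median was -0.48, with 32 of 38 genes below. Among treated tumors it ranged from -0.52 in Oxy186 r7 to 0.07 in Oxy186 r1, and from -0.59 in Oxy210 r2 to 0.11 in Oxy210 r6. Low tumors thus occurred in every group, while the highest medians were those of control r2 and r5, as the plot of all members by tumor shows.

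The genes for acid handling and secreted signals were lowest for CA9 and ANGPTL4. CA9, a cell-surface carbonic anhydrase (ENSG00000107159, chr9:35673928-35681159, + strand of GRCh38), had 79 to 606 counts per tumor. Its level was 2.84 at the lowest, 4.85 at the median and 5.43 at the highest in the control group, 2.52, 3.49 and 5.34 in Oxy186-treated and 3.06, 3.88 and 4.98 in Oxy210-treated samples. Control r6 was the lowest control, and the 3 groups overlapped over most of their range. The log2 fold change of CA9 was -0.64 ± 0.42 (SE, 7 against 7 tumors) for Oxy186 and -0.70 ± 0.32 for Oxy210. With GC offsets it was -0.42 and -0.43. An antisense gene overlaps 35.7% of the exon bases of CA9, and whether reads were counted by strand is not given in the sources used here.

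ANGPTL4, a secreted regulator of lipoprotein lipase, ranged from 5.65 over a median of 6.23 to 7.24 in controls, from 4.19 over 4.96 to 7.35 in Oxy186-treated and from 5.35 over 5.79 to 6.70 in Oxy210-treated samples. Oxy186-treated tumors spread widest, with an SD of 1.19 against 0.62 in controls. Its fold changes were -0.76 ± 0.44 and -0.61 ± 0.24 on the log2 scale. ADM, the vasodilator peptide adrenomedullin, had levels of 4.15, 5.55 and 6.48 (lowest, median, highest) in controls, 4.05, 4.97 and 5.96 with Oxy186 and 4.04, 4.84 and 6.64 with Oxy210. Its highest value of all 21 tumors was in the treated tumor Oxy210 r6. ADM stood at -0.57 ± 0.38 and -0.45 ± 0.39.

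VEGFA, the main growth factor for vessels, did not share this direction. Its level was 5.85, 6.37 and 7.38 in controls, 5.71, 6.38 and 7.56 in Oxy186-treated and 6.27, 6.69 and 7.40 in Oxy210-treated samples, with nearly the same range in each group. The fold changes of VEGFA were -0.01 ± 0.28 and 0.14 ± 0.22. CA12, a related carbonic anhydrase, was abundant per exon length (median 112 FPKM in controls) and stood at 0.04 ± 0.17 and 0.04 ± 0.14.

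**Figure D2:**
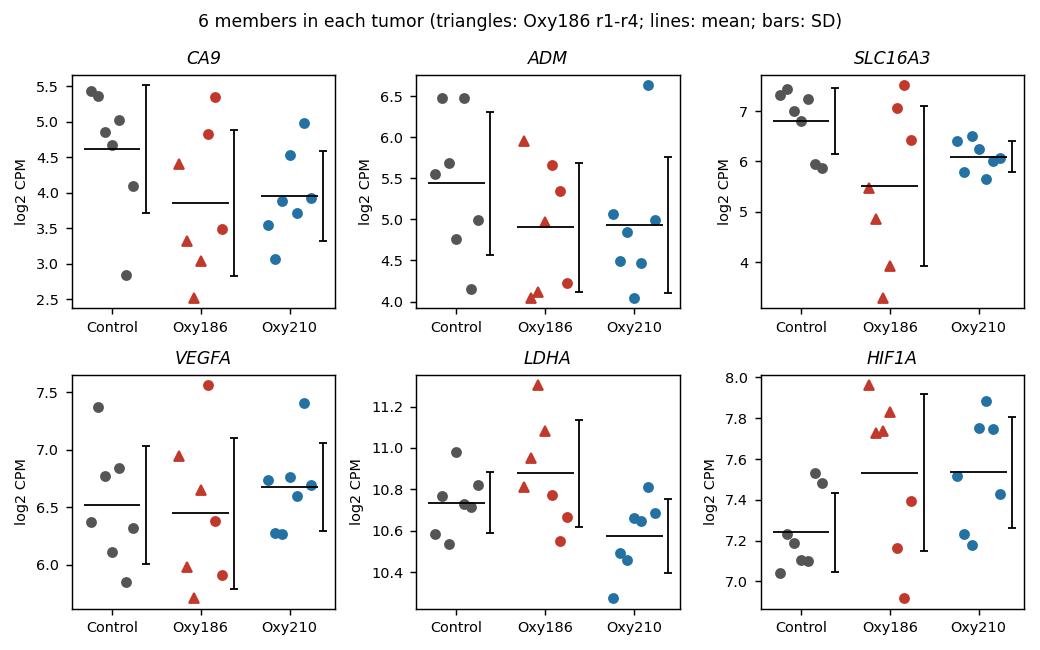
Log2 CPM of CA9, ADM, SLC16A3, VEGFA, LDHA and HIF1A in each tumor (7 per group; triangles are Oxy186 r1-r4; lines are means, bars SD). SLC16A3 is lowest in Oxy186 r1-r4 (3.29 to 5.47) and HIF1A is above every control there (7.73 to 7.96), while the groups overlap in VEGFA.

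The stress, mitophagy and transcription genes had small differences. All 8 were below 0 for Oxy186 and 7 of 8 for Oxy210, with medians of -0.24 and -0.20. NDRG1, a stress-response gene widely used as a hypoxia readout, ranged from 7.29 over 8.65 to 9.70 in controls, from 7.29 over 8.78 to 9.35 with Oxy186 and from 7.86 over 8.41 to 9.60 with Oxy210. Control tumors alone spanned the full range of the treated ones. NDRG1 stood at -0.28 ± 0.36 and -0.26 ± 0.31.

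BNIP3, a mitophagy receptor, was at 5.86, 6.70 and 7.04 in controls, 6.11, 6.37 and 6.73 with Oxy186 and 6.06, 6.34 and 6.58 with Oxy210. Its treated tumors lay within the control range, and the log2 fold changes were -0.28 ± 0.16 and -0.29 ± 0.15. For its relative BNIP3L they were -0.15 ± 0.22 and -0.14 ± 0.25. DDIT4, which restrains mTORC1 signaling, stood at -0.47 ± 0.30 and -0.54 ± 0.21. ANKRD37, a small ankyrin-repeat gene with low counts and an antisense overlap of 40.3% of its exon bases, stood at -0.47 ± 0.32 and -0.38 ± 0.27. The oxidoreductase ERO1A (-0.19 ± 0.21 and -0.13 ± 0.20), the histone demethylase KDM3A (-0.18 ± 0.19 and -0.06 ± 0.22) and the MYC antagonist MXI1 (-0.06 ± 0.21 and 0.11 ± 0.26) lay within 1 SE of 0 in both contrasts.

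Among the HIF subunits and oxygen sensors, both alpha subunits had log2 fold changes above 0 in both contrasts, with overlapping groups. HIF1A ranged from 7.04 over 7.19 to 7.53 in controls, from 6.92 over 7.73 to 7.96 in Oxy186-treated and from 7.18 over 7.52 to 7.88 in Oxy210-treated samples. Both treated medians were above the control median, with overlap. The log2 fold change of HIF1A was 0.33 ± 0.16 for Oxy186 and 0.33 ± 0.14 for Oxy210, and with GC offsets 0.19 in both. With Oxy186 r5-r7 alone it was -0.09. EPAS1, the HIF-2 alpha subunit, was at 6.42, 6.98 and 7.59 in controls, 6.69, 7.14 and 7.80 with Oxy186 and 6.45, 7.34 and 7.70 with Oxy210, with fold changes of 0.19 ± 0.19 and 0.25 ± 0.18.

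EGLN3, a prolyl hydroxylase that HIF itself induces, was at 5.66, 6.92 and 8.15 in controls, 5.54, 6.70 and 7.21 with Oxy186 and 5.46, 6.33 and 7.34 with Oxy210. The highest control lay above every treated tumor, and the lowest values were alike. EGLN3 stood at -0.64 ± 0.34 and -0.82 ± 0.33. EGLN1, the main sensor under normal oxygen, ranged from 3.90 over 4.37 to 4.88 in controls, from 3.11 over 3.80 to 4.70 with Oxy186 and from 3.71 over 4.19 to 5.18 with Oxy210. Its fold changes were -0.49 ± 0.24 and -0.12 ± 0.22, and a gene on the same strand shares 55.8% of its exon bases, so reads may be split.

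The collagen-processing genes, which hydroxylate or cross-link collagen chains, were nearest to 0. P4HA1 stood at -0.11 ± 0.23 for Oxy186 and -0.02 ± 0.24 for Oxy210. For P4HA2 the values were -0.16 ± 0.18 and -0.16 ± 0.15, and for PLOD2 -0.02 ± 0.22 and 0.10 ± 0.23. LOX, lysyl oxidase, had the lowest counts of these 4 genes and stood at -0.17 ± 0.27 and -0.29 ± 0.27.

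**Figure D3:**
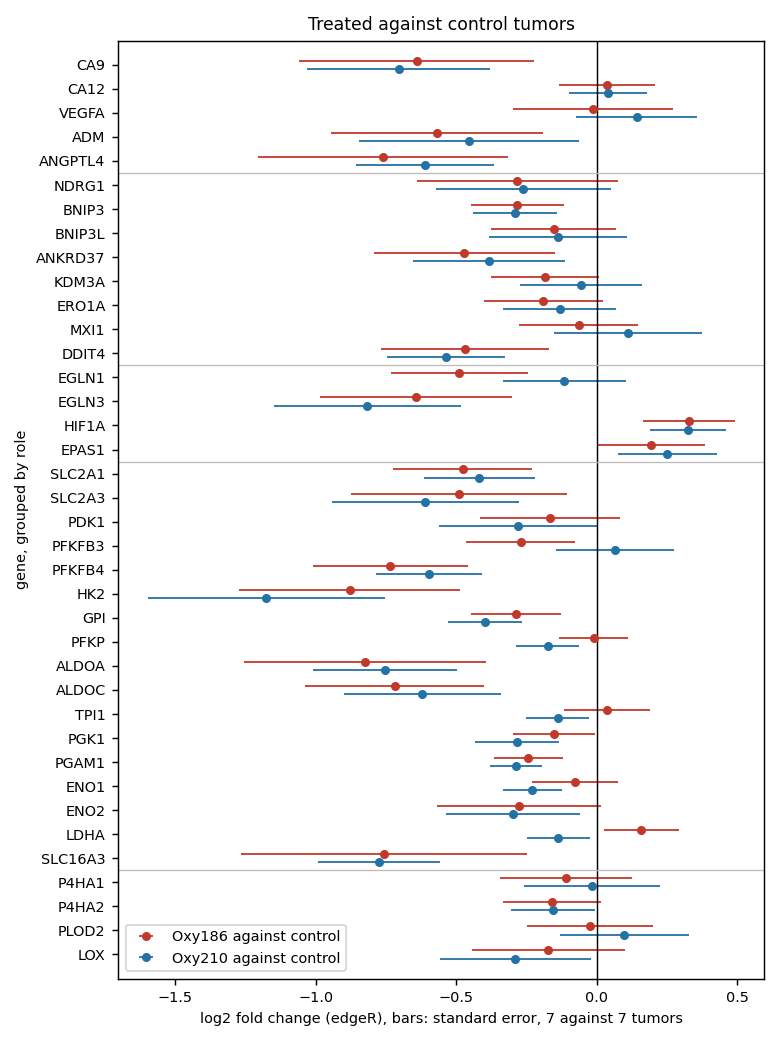
Log2 fold change of each of the 38 genes in Oxy186-treated (red) and Oxy210-treated (blue) against the same 7 control tumors, grouped by role, with standard errors as bars. HK2 lies farthest to the left (-0.88 and -1.18), the collagen-processing genes lie near 0, and HIF1A lies to the right (0.33 in both).

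Glucose uptake and glycolysis held the lowest value of all members. HK2, the hexokinase that traps glucose in the cell, ranged from 1.72 over 3.46 to 5.06 in controls, from 1.63 over 2.99 to 3.53 in Oxy186-treated and from 1.16 over 2.75 to 3.32 in Oxy210-treated samples. Controls had the widest spread, and their lowest tumor lay within both treated ranges. The fold changes of HK2 were -0.88 ± 0.39 and -1.18 ± 0.42, the lowest of the 38 genes in both contrasts. SLC2A1, the glucose transporter GLUT1, was at 7.54, 8.17 and 8.94 in controls, 7.16, 7.47 and 8.54 with Oxy186 and 7.56, 7.64 and 8.34 with Oxy210. Both treated medians lay near the lowest control, and the fold changes were -0.48 ± 0.25 and -0.42 ± 0.20. For the transporter GLUT3, SLC2A3, they were -0.49 ± 0.38 and -0.61 ± 0.33.

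PFKFB4, which sets the level of an activator of phosphofructokinase, ranged from 3.71 over 4.48 to 5.14 in controls, from 2.92 over 3.47 to 4.58 with Oxy186 and from 3.37 over 3.95 to 4.13 with Oxy210. The Oxy186 median lay below the lowest control and no Oxy210-treated tumor reached the control median, with fold changes of -0.73 ± 0.28 and -0.60 ± 0.19. Its relative PFKFB3 was at 6.81, 7.64 and 7.90 in controls, 6.72, 7.17 and 7.60 with Oxy186 and 6.78, 7.76 and 7.93 with Oxy210. The groups of PFKFB3 overlapped almost fully, at -0.27 ± 0.19 and 0.07 ± 0.21.

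GPI, which converts glucose 6-phosphate to fructose 6-phosphate, was at 9.09, 9.56 and 9.79 in controls, 8.80, 9.09 and 9.76 with Oxy186 and 8.76, 9.14 and 9.40 with Oxy210, and stood at -0.29 ± 0.16 and -0.40 ± 0.13. PFKP, a phosphofructokinase, was at 7.51, 7.84 and 8.10, at 7.53, 7.83 and 8.11 and at 7.25, 7.62 and 7.90 in the 3 groups in the same order. Its fold changes were -0.01 ± 0.12 and -0.17 ± 0.11. The aldolases split fructose bisphosphate, and ALDOC ranged from 2.29 over 3.97 to 4.21 in controls, from 2.06 over 3.05 to 3.58 with Oxy186 and from 2.33 over 3.09 to 3.51 with Oxy210. The control median lay above every treated tumor, while the lowest control, at 2.29, lay within the Oxy186 range and just under the Oxy210 range, and ALDOC stood at -0.72 ± 0.32 and -0.62 ± 0.28. ALDOA had levels of 2.62, 3.64 and 4.31 in controls, 0.84, 2.31 and 3.93 with Oxy186 and 2.04, 3.01 and 3.36 with Oxy210, with fold changes of -0.82 ± 0.43 and -0.75 ± 0.26. Another annotated gene shares 42.8% of the exon bases of ALDOA on the same strand, and its median of 3.23 FPKM in controls was far below the 361 FPKM of TPI1, the next enzyme, so its counts may hold only part of its reads.

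The abundant enzymes of the lower pathway differed less. TPI1 was at 9.60, 9.93 and 10.30 in controls, 9.41, 10.02 and 10.24 with Oxy186 and 9.61, 9.70 and 10.02 with Oxy210, and stood at 0.04 ± 0.15 and -0.14 ± 0.11. PGK1, the first ATP-forming step, was at 9.23, 9.47 and 10.11, at 9.25, 9.43 and 9.68 and at 8.95, 9.32 and 9.62 in the same order, with -0.15 ± 0.15 and -0.28 ± 0.15. PGAM1, the mutase that follows, was at 7.80, 7.89 and 8.19, at 7.30, 7.67 and 8.02 and at 7.42, 7.57 and 7.91. Its control range was narrow (SD 0.13) and treated medians lay below it, with fold changes of -0.24 ± 0.12 and -0.29 ± 0.09. The enolases stood at -0.08 ± 0.15 and -0.23 ± 0.11 for the ubiquitous ENO1, and at -0.28 ± 0.29 and -0.30 ± 0.24 for ENO2.

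LDHA, which reduces pyruvate to lactate, was above 0 in the contrast of all 7 Oxy186-treated tumors. It was at 10.54, 10.73 and 10.98 in controls, 10.55, 10.81 and 11.30 with Oxy186 and 10.28, 10.65 and 10.81 with Oxy210, and stood at 0.16 ± 0.13 and -0.14 ± 0.11. LDHA lay between 10.81 and 11.30 in Oxy186 r1-r4 and between 10.55 and 10.77 in r5-r7. With r5-r7 alone its log2 fold change against control was -0.09. SLC16A3, the lactate exporter MCT4, ranged from 5.87 over 7.00 to 7.45 in controls, from 3.29 over 5.47 to 7.52 in Oxy186-treated and from 5.65 over 6.06 to 6.51 in Oxy210-treated samples. Oxy186-treated tumors held both the lowest and the highest value of all, and Oxy210-treated tumors clustered low. Its fold changes were -0.76 ± 0.51 and -0.77 ± 0.22, and -0.54 and -0.41 with GC offsets. PDK1, which keeps pyruvate out of the mitochondrial oxidation, stood at -0.17 ± 0.25 and -0.28 ± 0.28.

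At an unadjusted p under 0.05, 3 of the 38 genes (HK2, PFKFB4 and ALDOC) were lower with Oxy186, beside 2.03% of all genes, and 0 were higher, beside 1.85%. With Oxy210, 13 were lower, beside 8.56% of all genes, and HIF1A was higher, beside 5.48%. Of these 13, 9 were genes of glucose uptake and glycolysis (SLC2A1, HK2, PFKFB4, GPI, ALDOA, ALDOC, PGAM1, ENO1 and SLC16A3), and the others were CA9, ANGPTL4, EGLN3 and DDIT4. Their adjusted p began at 0.233 (edgeR, over 16396 genes). Since the contrast was used to propose the genes, these counts are printed as a description.

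Glycolysis enzymes outside the 38 genes gave a similar picture for Oxy210. Of 10 listed enzymes 9 were tested, and 7 were below 0 for Oxy210 (median -0.25) and 5 for Oxy186 (median -0.01). PFKL (-0.49 ± 0.14), GAPDH (-0.37 ± 0.12), HK1 (-0.39 ± 0.14), PGM1 (-0.26 ± 0.10) and PKM (-0.25 ± 0.12) were below 0 with Oxy210 at an unadjusted p under 0.05, and PFKM (0.21 ± 0.09) was above. Of 22 other HIF targets, 17 were below 0 for Oxy186 and 18 for Oxy210, with medians of -0.16 in both. The HIF machinery (partner subunits, hydroxylases and the degradation complex) had 5 of 12 tested genes below 0 in each contrast. No gene of these lists passed the adjusted threshold. The human leukocyte markers summed to 12.3 to 32.2 CPM in controls and 12.3 to 19.2 CPM with Oxy210, and within them LYZ was at -0.90 ± 0.29, CD14 at -0.80 ± 0.35 and ITGAM at 0.07 ± 0.17, while PTPRC, CD68 and CSF1R had at most 8 counts in any tumor. Of the fibroblast markers, DCN was at -1.28 ± 0.32 (adjusted p = 0.204, edgeR), LUM at -0.50 ± 0.21 and COL1A1 at 0.12 ± 0.20 with Oxy210. The part of these markers in the values above was not tested.

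Oxy186 r1-r4 alone gave larger differences from control. The study chose these 4 tumors because they stood apart from the other samples in a principal component analysis of the same RNA-seq data. Their SE and calls therefore describe tumors picked for their distance from control and are not a separate test. With these 4 tumors in the fit, 8 of 38 genes (21.1%) were called lower, beside 8.13% of 16852 genes, and 0 were called higher, beside 0.214%. These were SLC16A3 (-2.30 ± 0.41), ALDOA (-2.04 ± 0.37), ANGPTL4 (-1.68 ± 0.37), CA9 (-1.32 ± 0.42), DDIT4 (-1.18 ± 0.26), ALDOC (-1.15 ± 0.36), PFKFB4 (-1.14 ± 0.28) and EGLN1 (-1.01 ± 0.22). Among them ALDOA and EGLN1 share exon bases with another gene on the same strand, so their counts may hold only part of their reads. SLC16A3 lay between 3.29 and 5.47 in r1-r4, below the lowest control at 5.87, and between 6.42 and 7.52 in r5-r7. HIF1A lay between 7.73 and 7.96 in r1-r4, above the highest control at 7.53, and between 6.92 and 7.39 in r5-r7, with a log2 fold change of 0.56 ± 0.12 for r1-r4 that was under the fold limit. NDRG1 (-0.31 ± 0.39), VEGFA (-0.20 ± 0.28) and P4HA1 (0.00 ± 0.24) were not called. Apart from EGLN1, with 45.3% GC in its exons, the 8 genes had between 55.4% and 66.0% GC, and GC slopes were below 0, and below every control, in all 4 of these libraries. The part of GC content in these 8 calls was not tested. Against Oxy210, 3 of 38 genes were called lower in r1-r4, beside 4.23% of 16908 genes, and these were SLC16A3 (-1.51 ± 0.32), ALDOA (-1.27 ± 0.33) and ANGPTL4 (-1.05 ± 0.31).

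Whether the related compounds differ from each other was tested directly, at the same dose, on all 38 genes. No gene was called between Oxy186-treated and Oxy210-treated samples (0% of 16361 genes by edgeR, 664 at an unadjusted p under 0.05), and the adjusted p was 1 for every member. The median log2 difference over the 38 genes was -0.00, and 20 of 38 were below 0, beside 51.5% of all genes. LDHA had the largest evidence, 0.30 higher with Oxy186 (95% interval 0.04 to 0.56, unadjusted p = 0.0385 by edgeR, with overlapping groups), and it was the only member under that limit, beside 3.14% of all genes higher and 0.917% lower. In 0 of 38 genes were the 2 groups without overlap, beside 0.0183% of genes lower and 0.0489% higher. PFKFB3 was at -0.34 (interval -0.74 to 0.07), EGLN1 at -0.37 (-0.90 to 0.15), PFKP at 0.17 (-0.07 to 0.40) and TPI1 at 0.18 (-0.10 to 0.46). For CA9 the interval ran from -0.70 to 0.85, for HK2 from -0.40 to 1.00 and for SLC16A3 from -0.92 to 0.97. These intervals used a normal approximation and can be narrower than the edgeR test implies. Even so they are wide, so a lack of calls does not show that the compounds act alike. With Oxy186 r1-r4 alone, the 3 members named above were called, among 749 of 16908 genes (4.43%). In that fit LDHA stood at 0.46 (adjusted p = 0.0418, edgeR) and EGLN1 at -0.88 (adjusted p = 0.0423), both under the fold limit. With r5-r7 alone EGLN1 turned to 0.11 and LDHA stood at 0.06.

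How the genes vary together between tumors does not depend on differences between the group means, once the mean of each group is taken out. The difference between r1-r4 and r5-r7 within the Oxy186 group stays in these values. For this, the level of CA9 in each tumor was entered beside the group in edgeR's model over all 21 tumors, and its coefficient gives the log2 change of a gene per log2 unit of CA9. Of the other 37 members, 13 rose with CA9 at an adjusted p at or under 0.05 (35.1%), beside 5.35% of 16989 genes, and 0 fell, beside 5.16%. The coefficient was above 0 in 33 of 37, beside 53% of all genes, with a median of 0.25 against 0.01. CA9 was lowest for its group in control r6 and highest for its group in Oxy186 r6. Without these 2 tumors, 8 of 37 members rose (21.6%), beside 0.855% of 17086 genes. BNIP3, EGLN3, SLC2A1, HK2 and ALDOA, all among the 13, were then not called (adjusted p from 0.134 to 0.228, edgeR). Without Oxy186 r1-r4, 9 of 37 members rose (24.3%), beside 0.616%. In that fit VEGFA (adjusted p = 0.0586, edgeR), ANGPTL4 (0.0686), PFKFB4 (0.0753), SLC2A1 (0.104) and ALDOA (0.364) were not called, and CA12 (0.0207) was. The coefficient of ALDOA was 0.30 there. All genes that lost their call kept a coefficient above 0.

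SLC16A3 followed CA9 most steeply, at 0.83 ± 0.16 (SE, adjusted p = 0.00385, edgeR over 16989 genes). ADM followed at 0.75 ± 0.15 (adjusted p = 0.00411), ANGPTL4 at 0.74 ± 0.13 (adjusted p = 0.00216), NDRG1 at 0.66 ± 0.12 (adjusted p = 0.0031) and HK2 at 0.64 ± 0.19 (adjusted p = 0.033). In these 5 genes 1 log2 unit of CA9 went with 0.64 to 0.83 log2 units. The other 8 members that rose were ALDOC (0.64 ± 0.09), ALDOA (0.60 ± 0.17), ENO2 (0.56 ± 0.08), EGLN3 (0.52 ± 0.15), PFKFB4 (0.46 ± 0.08), VEGFA (0.45 ± 0.10), SLC2A1 (0.38 ± 0.09) and BNIP3 (0.25 ± 0.06). VEGFA, which stood near 0 in the contrasts with control, rose with CA9 between tumors of the same group (adjusted p = 0.00863, edgeR).

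The smallest coefficients belonged to HIF1A (-0.13 ± 0.07), EPAS1 (-0.08 ± 0.09), LDHA (-0.07 ± 0.06), EGLN1 (-0.00 ± 0.13) and PGAM1 (0.01 ± 0.06), none of them called. TPI1 (0.04 ± 0.07) and ENO1 (0.04 ± 0.07) also lay at 0, and PGK1 at 0.17 ± 0.06 had an adjusted p of 0.0798 by edgeR. Thus within the glycolysis genes the aldolases ALDOC and ALDOA and the enolase ENO2 rose with CA9, as did SLC16A3, HK2, PFKFB4 and SLC2A1. The calls of ALDOA, HK2, PFKFB4 and SLC2A1 depended on which tumors were in the fit, and the counts of ALDOA may hold only part of its reads. No relation of the abundant enzymes ENO1, TPI1, PGAM1 and LDHA was called. Collagen-processing genes had coefficients from 0.11 to 0.31 with 0 of 4 called.

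**Figure D4:**
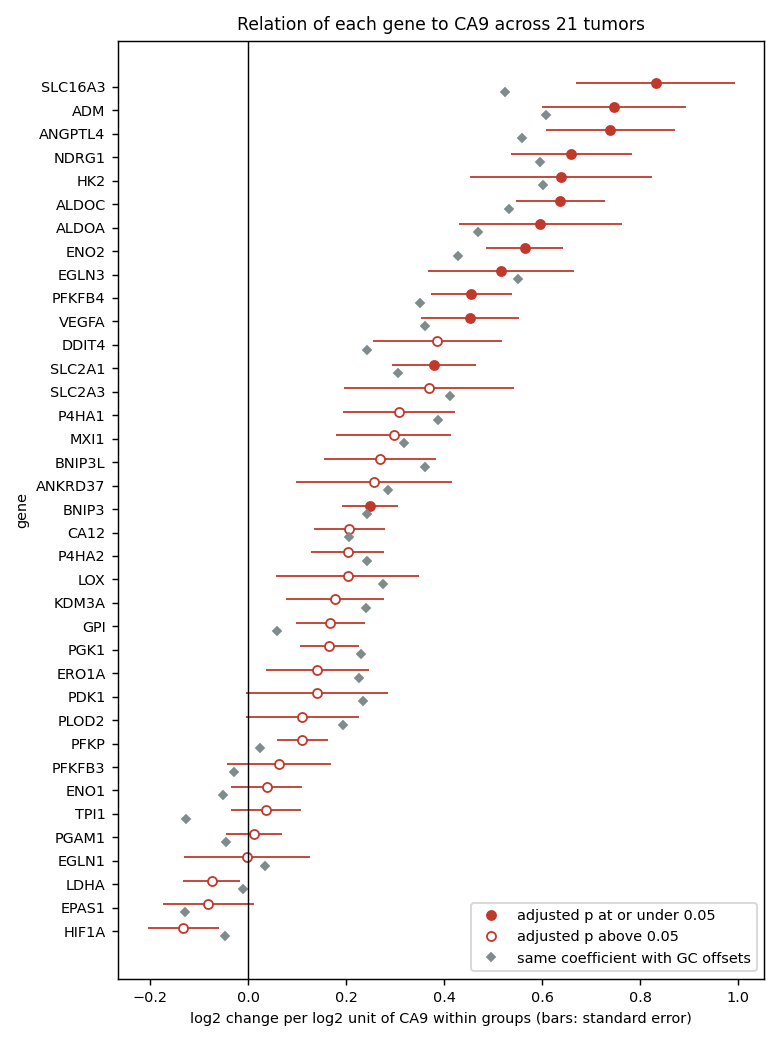
Coefficient of each of 37 genes for CA9 (log2 change per log2 unit of CA9, group means taken out, 21 tumors) with its standard error, filled where the adjusted p was at or under 0.05, and the same coefficient with GC offsets as gray diamonds. SLC16A3 leads at 0.83 and falls to 0.52 with GC offsets, P4HA1 moves up from 0.31 to 0.39, and HIF1A is last at -0.13.

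GC offsets for the tested genes, with the level of CA9 left uncorrected, gave a similar count and changed some names. Where the trend was removed from CA9 as well, 21 of 37 correlations with CA9 passed, beside 3.37% of genes positive. Without removal it was 11 of 37, beside 2.43%. CA9 (59.9% GC) itself varied with the GC slope of the library, with r = 0.488 (permutation p = 0.0496) and rho = 0.439 (permutation p = 0.0739) over 21 tumors with group means removed, and r = 0.220 without the 2 tumors farthest in slope. Within the control, Oxy186 and Oxy210 groups r was 0.572, 0.766 and -0.372. With GC offsets 14 of 37 members rose with CA9, beside 2.22% of genes, and 0 fell, beside 3.15%. P4HA1 (0.39 ± 0.08, adjusted p = 0.0131), P4HA2 (0.24 ± 0.06, adjusted p = 0.0323), BNIP3L (0.36 ± 0.08, adjusted p = 0.017) and PGK1 (0.23 ± 0.05, adjusted p = 0.0196, all edgeR), whose exons have 39.1% to 45.7% GC, were then called. VEGFA (adjusted p = 0.0926), ADM (0.0541) and HK2 (0.0686) were not, with coefficients of 0.36, 0.61 and 0.60.

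Outside the 38 genes, the 5 with the smallest p and a mean log2 CPM of at least 1 all rose with CA9. They were EEF1A2, a translation elongation factor (0.92 ± 0.10), B3GNT6, a glycosyltransferase of mucin-type glycans (0.95 ± 0.10), INHA, an inhibin subunit (0.88 ± 0.10), MIR210HG, the host gene of the hypoxia-linked miR-210 (0.94 ± 0.10), and SPAG4 (0.81 ± 0.09). MIR210HG had the steepest slope after B3GNT6 among these 5. Of 22 other HIF targets 17 had a coefficient above 0 and 5 rose: PPFIA4 (1.09 ± 0.17), STC2 (0.74 ± 0.16), KDM4B (0.43 ± 0.09), HILPDA (0.31 ± 0.08) and ZNF395 (0.24 ± 0.07). TFRC, the transferrin receptor, fell at -0.20 ± 0.05. Of 9 other glycolysis enzymes PFKL rose (0.35 ± 0.09), and of 12 tested genes of the HIF machinery CUL2, the scaffold of the degradation complex, fell (-0.18 ± 0.05). With GC offsets the other HIF targets that rose were PPFIA4, STC2, KDM4B, TMEM45A and PPP1R3C, beside 2.22% of genes. HILPDA, ZNF395, TFRC, PFKL and CUL2 were then not called.

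Proliferation genes ran opposite to CA9. All 7 had a coefficient below 0, with a median of -0.39, and 6 fell: BUB1 (-0.49 ± 0.08), TOP2A (-0.45 ± 0.07), CCNB1 (-0.41 ± 0.08), CDK1 (-0.39 ± 0.07), MKI67 (-0.35 ± 0.08) and PCNA (-0.26 ± 0.06), beside 5.16% of all genes. With GC offsets 5 of 7 fell, beside 3.15%. Of the ATF4 stress genes TRIB3 rose (0.30 ± 0.09) and the other 5 were not called. Among 8 A549 markers EPCAM (-0.26 ± 0.08) and ALDH1A1 (-0.22 ± 0.06) fell, of 3 tested fibroblast markers LUM fell (-0.50 ± 0.09), and none of the 2 endothelial or 3 leukocyte markers that could be tested was called. With GC offsets EPCAM, KRT7 and LUM fell, while TRIB3 and ALDH1A1 were not called.

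As correlations over the 21 tumors with group means removed, 34 of the 37 genes were positive with CA9, with a median r of 0.492 against 0.0351 over 16989 genes. These values share libraries, depth and GC trend. At a permutation p adjusted over all 16989 genes, 11 of 37 were positive by Pearson's r, beside 2.43% of genes, and 8 by Spearman's rho, beside 1.22%. By either measure 0 of 37 were negative, beside 3.6% and 1.96% of genes. ALDOC had r = 0.874 and rho = 0.882, both at permutation p = 1e-05, the smallest that 100000 permutations can give (adjusted 0.00283 and 0.00485), and r = 0.829 without the 2 tumors farthest in CA9. ENO2 had r = 0.860 and rho = 0.864, also at p = 1e-05 by permutation, and r = 0.854 without those 2. For ALDOC r was 0.928, 0.888 and 0.780 within the control, Oxy186 and Oxy210 groups, and for ENO2 it was 0.823, 0.877 and 0.912. In contrast, SLC16A3 had r of 0.897 and 0.894 in the control and Oxy186 groups and 0.201 in the Oxy210 group. ALDOA had 0.839, 0.833 and -0.167, and the difference between groups was not tested. In 23 of the 37 genes r was above 0 in all 3 groups.

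The 703 pairs of members fell into blocks. Pearson's r was above 0 in 506 pairs with a median of 0.351, above 0.5 in 276 and below -0.5 in 40. Pairs of genes outside the members were not computed, so these counts have no background share beside them. The pairs were also not repeated without Oxy186 r1-r4. NDRG1 was the most central gene, with a median r of 0.666 to the other 37, followed by EGLN3 (0.642), ENO2 (0.630), HK2 (0.622) and VEGFA (0.617). This order changed with the GC trend removed. P4HA1 then had the highest median (0.797, from 0.527), followed by NDRG1 (0.779), ENO2 (0.760) and EGLN3 (0.742). HK2 was at 0.677 and VEGFA at 0.626. The closest pair was NDRG1 and EGLN3 with r = 0.953 and rho = 0.952 (permutation p = 1e-05 for each, unadjusted over 703 pairs), and r = 0.931 without the 2 tumors farthest in NDRG1. BNIP3L, P4HA1, MXI1 and KDM3A formed another tight block, with r = 0.951 for BNIP3L and P4HA1 and 0.937 for P4HA1 and MXI1. PLOD2 and ERO1A, with r = 0.920, lay beside it.

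TPI1, PGAM1 and ENO1 formed a block that had negative r with many of the other members. TPI1 and ENO1 had r = 0.903, PGAM1 and ENO1 0.894 and TPI1 and PGAM1 0.825. Their medians with the other members were -0.26, -0.27 and -0.25 for TPI1, PGAM1 and ENO1. PLOD2 and ENO1 had the most negative pair, r = -0.816 and rho = -0.810 (permutation p = 1e-05 and 2e-05, unadjusted), with r = -0.842 without 2 tumors. ERO1A and ENO1 followed at r = -0.809. With the GC trend removed, these became -0.567 and -0.642, TPI1 and ENO1 0.625, while NDRG1 and EGLN3 were at 0.967. The GC content of exons was 54.2% in ENO1 and 57.6% in TPI1 against 36.0% in PLOD2 and 38.8% in ERO1A.

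A last block held ALDOA, SLC16A3 and DDIT4, all 3 among the genes called lower in Oxy186 r1-r4, and members of it had negative r with HIF1A and LDHA. The counts of ALDOA may hold only part of its reads. ALDOA and SLC16A3 had r = 0.923, ALDOA and HIF1A -0.782, SLC16A3 and HIF1A -0.723 and SLC16A3 and LDHA -0.731. With the GC trend removed these were 0.768, -0.447, -0.244 and -0.309. HIF1A mRNA had a median r of -0.14 with the other members, and EPAS1 of -0.02. HIF1A had r = 0.551 with LDHA and 0.542 with PLOD2, and EPAS1 had 0.582 with PFKFB3. With the GC trend removed these 3 values were -0.107, 0.0487 and 0.696.

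**Figure D5:**
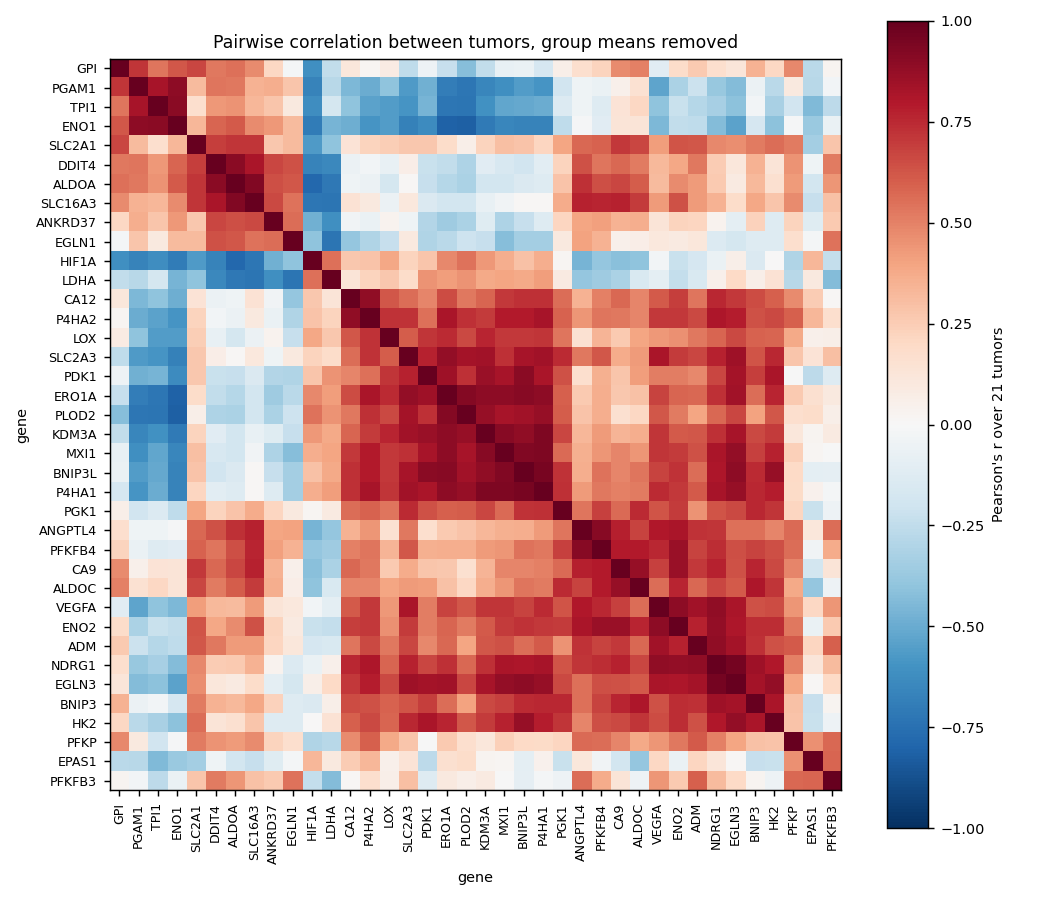
Pearson's r of all 703 pairs of the 38 genes over 21 tumors with group means removed, with genes ordered by average-linkage clustering. The large red square runs from CA12 to HK2, the small one at the upper left holds GPI, PGAM1, TPI1 and ENO1, and blue cells mark pairs such as PLOD2 and ENO1 (-0.816).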

How the data were processed

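RNA of 21 A549-Luc2 xenografts (7 control, 7 Oxy186-treated, 7 Oxy210-treated) was sequenced by the authors from libraries of the NEBNext Ultra II RNA kit. The submitters' processing notes name Trimmomatic 0.39, STAR 2.7.6a, featureCounts of Subread 2.0.1 and the builds GRCh38.p13 and GRCm39. The authors aligned the reads to both genomes together and deposited raw counts per human gene, which are the unit used here. The deposited log2 CPM values cover part of the samples and were not used. Whether counting used strand is not given in the sources used here. Nothing in the labels ties tumors to litters or days, and each tumor was taken as 1 replicate.

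All tests were run here on the deposited counts in R 4.3.3 with edgeR 4.0.16 (filterByExpr, TMM, quasi-likelihood test), fitted and adjusted (Benjamini-Hochberg) over all tested genes, and a call required more than a 2-fold change with an adjusted p of 0.05 or less. The relation to CA9 used the group and the group-centered log2 CPM of CA9 (prior count 2) as terms, and a call needed the adjusted p alone. Correlations used 100000 permutations of tumors within groups in python 3.11.15 (numpy 2.4.6, scipy 1.17.1), and their p was adjusted over all genes, since a p adjusted over the members alone would rest on a chosen list. GC content, exon length and positions came from GENCODE 44 on GRCh38, with a GC value for 99.8% of genes. GC offsets were splines with 4 degrees of freedom per library, fitted over genes whose mean log2 CPM reached 1. The scripts were tested on simulated data. The alternatives were limma voom 3.58.1, DESeq2 1.42.0, RLE or no scaling, other filters (none, or at least 10 counts per library), GC offsets, a replicate block, all 21 libraries in 1 fit, NDRG1 or VEGFA in place of CA9, a prior count of 0.5, and leaving tumors out. The Oxy186 r5-r7 alternative was chosen after seeing the data.

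The members, the other lists and the tests were chosen with earlier results of these data known. By rule the text gives the fold change of every member against control, tumor values for 12 fixed members and the 5 with the smallest unadjusted p in each comparison, and, for CA9, the 5 largest and 5 smallest coefficients and 5 other genes. Tumor growth, RT-qPCR and reporter data were not analysed here.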

Additional observations from a re-analysis of the deposited data

Results flagged for a closer look

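Of 114 sets of 7 values (38 genes in 3 groups), 3 held a tumor far from the other 6 by Dixon's test at the 95% level, where about 5.7 would be flagged by chance. ADM was at 6.64 log2 CPM in Oxy210 r6, far above the other Oxy210-treated tumors, and CA9 was also highest of its group there, at 4.98. LOX was at 3.84 log2 CPM in Oxy186 r1, above the other Oxy186-treated tumors. PFKFB4 was at 3.37 log2 CPM in Oxy210 r2, below the other Oxy210-treated tumors, and the median of all 38 genes was lowest in that tumor as well, at -0.59 against the control mean.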

How the results depend on the processing

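The count of members called against control stayed at 0 in every alternative but Oxy186 r1-r4, where it was 8 (3 against Oxy210, among 749 of 16908 genes called), and the median fold change of members kept its sign against control in all of them. The members lower with Oxy186 at an unadjusted p under 0.05 numbered 8 without a filter (4.1% of all genes), 6 with limma voom (5.33%), 6 with all 21 libraries in 1 fit (2.79%), 12 with r1-r4 (21.7%) and 1 with r5-r7 (1.3%). With Oxy210 they numbered 8 with all 21 libraries (5.12%), and Oxy186 against Oxy210 gave 7 with r1-r4 (17.2%) and 1 with r5-r7 (4.83%), where EGLN1 turned to 0.11. Against control, LDHA and HIF1A were both at -0.09 with r5-r7 alone.

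In the relation to CA9, 946 of 39508 genes (2.39%) were called without a filter and 913 of 16989 (5.37%) with GC offsets. Without Oxy186 r1-r4 it was 296 of 18024 (1.64%). Without the 2 most extreme tumors it was 270 of 17086 (1.58%), with 8 members, all rising, beside 0.855% of genes rising. NDRG1 as reference gave 660 of 16989 (3.88%), with 19 members, all rising, beside 1.61% of genes rising. Correlations with CA9 passed in 21 members with the GC trend removed (median r 0.687; 3.37% of all genes were positive), in 4 without the 2 farthest tumors (0.277%) and in 5 without Oxy186 r1-r4 (0.3%).

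Replicate numbers are shared only by name: the deviations of same-numbered tumors correlated between -0.40 and 0.33, and in 4 of 21 pairs above 0.1. With the replicate block, 7 members were lower with Oxy210 (9.22% of all genes). In the same setting 7 rose with CA9 among 256 genes called, beside 0.706% of all genes rising. With the block and GC offsets, 5 members were lower with Oxy186 (1.84%) and 4 with Oxy210 (6.26%). There 1 rose with CA9 among 29 genes called, beside 0.0942% of all genes rising. No member was called in a contrast under the block.

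Coefficients near 0 changed sign. EGLN1 became 0.022 with library size alone, 0.010 with the count minimum, 0.011 with limma voom, 0.035 with GC offsets and 0.044 without the 2 extreme tumors. With GC offsets PFKFB3 became -0.030, TPI1 -0.13, PGAM1 -0.045 and ENO1 -0.052. With block and GC offsets PFKFB3 became -0.11, TPI1 -0.081, PGAM1 -0.028, ENO1 -0.026 and LDHA 0.0044. Without Oxy186 r1-r4 PFKFB3 became -0.041, PGAM1 -0.028, ENO1 -0.033 and LDHA 0.028. Without the 2 extreme tumors TPI1 became -0.076, PGAM1 -0.087, ENO1 -0.065 and EPAS1 0.11, and without a filter PGAM1 became -0.0022. Causes were not tested. Depth limits members with low levels, such as ANKRD37, LOX, ALDOA and HK2.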
